A study of Homo sapiens with 8 samples.

Results

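Aminoacyl-tRNA synthetases are the enzymes that load each amino acid onto its transfer RNA, and human cells carry one set for the cytosol and another for the mitochondria. The 36 synthetase genes described here were taken as a fixed list by gene symbol, 20 for the cytosol (AARS1 to YARS1, with FARSA, FARSB and TARS3) and 16 for the mitochondria (AARS2 to YARS2). All 36 were found among the 60725 genes of the count table, and all had enough reads to be tested. The list does not cover every amino acid.

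The cells were HAP1, a near-haploid human line derived from a chronic myeloid leukaemia, as a single clone that stably expressed dCas9-KRAB, a catalytically dead Cas9 fused to a repressor domain. All libraries carried this fusion. Polyadenylated RNA was sequenced 144 h after lentiviral transduction of 1 guide RNA, against NELFE (3 libraries), NELFB (2 libraries) or, as the control, ADAM22 (3 libraries). NELFE and NELFB are subunits of the negative elongation factor NELF, which holds RNA polymerase II shortly after the start of transcription. Each target was silenced by a single guide RNA in 1 clone, so the values cannot tell the loss of the target apart from other effects of that guide RNA or clone. The libraries held 22037423 to 24444185 gene counts each, and values are given as CPM, the count of a gene scaled to a common library total after TMM normalisation.

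The guide targets followed the labels. NELFE was at 50.6, 49.4 and 47.8 CPM in the control libraries, 2.41, 2.37 and 2.97 CPM in the NELFE knockdown and 61.3 and 56.5 CPM in the NELFB knockdown. NELFB was at 74.5, 72.7 and 78.7 CPM in the control libraries, 63.4, 64.1 and 63.9 CPM in the NELFE knockdown and 3.07 and 2.76 CPM in the NELFB knockdown. ADAM22, the target of the control guide RNA, was at 13.7, 12.9 and 11.2 CPM in the control libraries, 40.3, 47.6 and 29.8 CPM in the NELFE knockdown and 35.6 and 40.8 CPM in the NELFB knockdown. It was therefore lowest where it was targeted. Every comparison with the control also sets cells with untargeted ADAM22 against cells with targeted ADAM22, and the effects of both cannot be told apart. Of the markers of the blood lineage from which the line derives, PTPRC, CD33, SPN and GATA1 had a mean of at most 0.217 CPM in each group, while BCR and ABL1, fused in the parental leukaemia, had 21.1 and 20.5 CPM in control cells and 26.1 and 42.4 CPM in the knockdowns. CD34 changed from 0.0989 CPM in control cells to 0.742 and 1.84 CPM in the NELFE and NELFB knockdowns. Of the fibroblast markers, DCN and LUM had no read in any library, PDGFRB had a mean of at most 0.523 CPM, COL1A1 was at 22.9 CPM in control cells and 20.9 CPM in the knockdowns, and COL3A1 went from 0.243 to 5.03 and 19.4 CPM. Of the epithelial markers, EPCAM and CDH1 were at or under 0.231 CPM on average, and KRT8 went from 3.48 to 9.12 and 13.6 CPM and KRT18 from 28.9 to 38.8 and 48.1 CPM. CD34, ABL1, COL3A1, KRT8 and KRT18 passed the test described below, all upwards. The part of these marker changes in the synthetase values was not tested.

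All of these synthetases are encoded in the nucleus. The mitochondrial enzymes are imported and serve the translation of the 13 proteins encoded by mitochondrial DNA. GARS1 and KARS1 are exceptions, since 1 gene supplies glycyl-tRNA or lysyl-tRNA synthetase to both compartments. Several cytosolic synthetases are bound together in the multisynthetase complex, and many cytosolic synthetase genes are known targets of ATF4, the transcription factor of the amino acid and integrated stress responses, which binds C/EBP-ATF response elements.

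Short stretches of the promoters are shown first, because a match to this element was found in several cytosolic members that are described below. Promoter sequences of RefSeq (GRCh38.p14), from 250 bases before to 50 bases after the start site, were at hand for 16 of the 20 cytosolic and 14 of the 16 mitochondrial members. LARS1, TARS3, VARS1, YARS1, AARS2 and VARS2 had none. The letters TGATGNAA were searched on both strands. They were present in 6 of the 16 cytosolic promoters (37.5%) and 1 of the 14 mitochondrial ones (7.14%), compared with 3.67% of all 27305 promoters and 1.59% of the 11412 promoters of genes tested here. The 6 cytosolic matches all read TGATGCAA on one of the strands, and are given in the direction of the gene with the match in capitals.
AARS1 promoter, chr16:70289676-70289703, minus strand: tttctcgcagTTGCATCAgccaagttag
CARS1 promoter, chr11:3057408-3057435, minus strand: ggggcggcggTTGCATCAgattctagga
IARS1 promoter, chr9:92293693-92293720, minus strand: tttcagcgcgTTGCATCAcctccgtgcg
MARS1 promoter, chr12:57488054-57488081, plus strand: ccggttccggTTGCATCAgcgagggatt
NARS1 promoter, chr18:57621805-57621832, minus strand: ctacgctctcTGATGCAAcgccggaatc
TARS1 promoter, chr5:33440957-33440984, plus strand: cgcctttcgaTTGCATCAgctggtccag

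The first base of the match lay 187 bases before the start site in AARS1, 2 before it in CARS1, 13 before it in IARS1 and 4 before it in MARS1. In NARS1 and TARS1 it lay 14 and 2 bases after the start site. The window of AARS1 is upstream of the canonical start. The windows of all these genes are inside the annotated gene, since other transcripts of each gene start earlier. None of these matches overlapped a match of the other motifs searched. The mitochondrial match was TGATGGAA in YARS2. The E-box CACGTG was present in 1 cytosolic promoter (IARS1) and 3 mitochondrial ones (CARS2, EARS2 and MARS2), and in 10.0% of tested genes. The palindromic motif of NRF1 was searched with any base allowed at 1 of its positions. This looser form was present in 3 cytosolic promoters (FARSB, SARS1 and TARS1) and 3 mitochondrial ones (IARS2, MARS2 and PARS2), and in 11.5% of tested genes. Of these members, only MARS2 held the palindrome itself. A match describes the letters in this window, and binding was not measured.

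Levels were compared between genes as TPM, which also divides by the length of the canonical transcript. In control cells the cytosolic members ranged from 20.5 to 405 TPM with a median of 218, and the mitochondrial ones from 5.65 to 169 TPM with a median of 48.7. GARS1 was the most abundant at 405 ± 18.4 TPM (SD, n = 3), followed by YARS1 at 386 ± 10.1 TPM (SD, n = 3) and TARS1 at 380.1 ± 56.4 TPM (SD, n = 3), which did not differ beyond their spread. TARS3, a close relative of TARS1, was the least abundant cytosolic member at 20.5 ± 1.07 TPM (SD, n = 3). IARS2 was the most abundant mitochondrial member at 169 ± 12.6 TPM (SD, n = 3) and SARS2 the least at 5.65 ± 0.229 TPM (SD, n = 3). SARS2 shares 48.2% of its exon bases with another annotated gene on the same strand that had no counted read, and reads over 2 genes are not counted, so its level is uncertain.

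The question of the main comparison was how gene expression changed when NELF was depleted, with the 5 knockdown libraries set against the 3 control libraries. Expression of most cytosolic synthetases was lower after NELF depletion. Of the 20 cytosolic members 13 were downregulated at an adjusted p under 0.05 (quasi-likelihood test of edgeR, Benjamini-Hochberg adjusted over all 16367 genes tested), and 0 were upregulated. Of the 16 mitochondrial members 6 were downregulated and 0 upregulated. Over all genes tested, 12.7% were downregulated and 13.3% upregulated. The median log2 fold change was -0.39 for the cytosolic and -0.20 for the mitochondrial members, compared with -0.0021 for all genes. The change exceeded 1.5-fold for 4 cytosolic members (AARS1, VARS1, GARS1 and YARS1) and for 0 mitochondrial ones, and for 3.09% of all genes in this direction. At an unadjusted p under 0.05, 15 cytosolic and 8 mitochondrial members passed, all of them lower, compared with 18.8% of all genes in this direction. In the other direction 0 members passed, compared with 19.7% of all genes. After adjustment DESeq2 called 13 and 6 members lower, as edgeR did, and 0 higher.

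**Figure D1:**
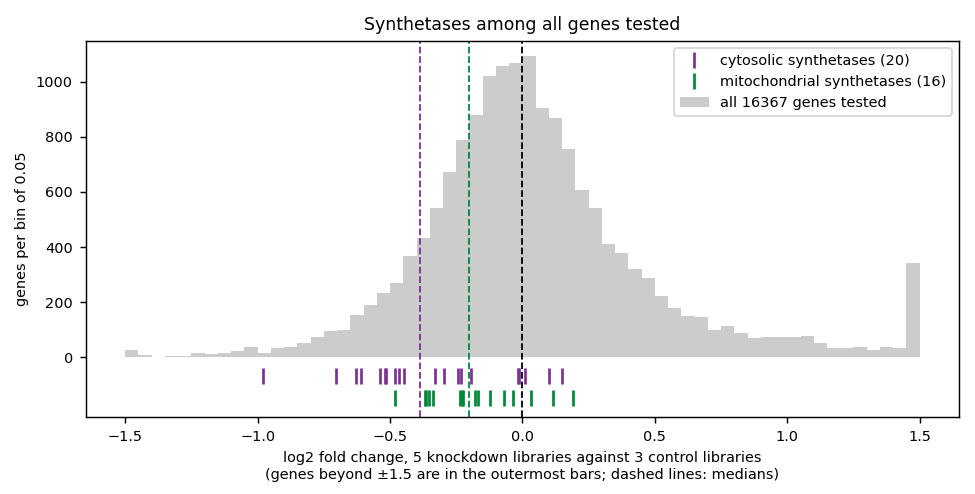
Histogram of the log2 fold change of all 16367 genes tested, 5 knockdown libraries against 3 control libraries, in bins of 0.05. Ticks under the axis mark the 20 cytosolic and 16 mitochondrial synthetases, and the dashed medians lie at -0.39, -0.20 and, for all genes, -0.0021.

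The members also differ in level, and a smaller change passes the test at a higher count. When the tested genes were split by average CPM into 5 groups of equal size, 19 of the 20 cytosolic members were in the highest group, in which 17.7% of genes were downregulated. Of the mitochondrial members, 4 were in the highest group, 7 in the next, in which 17.1% of genes were downregulated, and 5 lower. In each of these 2 highest groups 2 mitochondrial members were called. The 5 knockdown libraries all lay below the 3 control libraries for 12 cytosolic and 6 mitochondrial members, and above them for 0 and 1 (RARS2), compared with 14.0% of all tested genes below and 14.8% above. RNA was taken from whole cultures and scaled to the library total, so less RNA of a gene per cell and fewer cells that express it cannot be told apart.

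The summed level of the 20 cytosolic members was 5738, 5938 and 6267 CPM in the control libraries, 4518, 4574 and 5092 in the NELFE knockdown and 4455 and 4397 in the NELFB knockdown. All 5 knockdown libraries were below all 3 control libraries, and the mean was 23.0% lower. Without AARS1, the member with the largest change, it was 21.5% lower. The summed level of the 16 mitochondrial members was 1044, 1074 and 1092 CPM in the control libraries, 966, 954 and 974 in the NELFE knockdown and 918 and 894 in the NELFB knockdown, also without overlap, with a mean 12.0% lower.

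AARS1 loads alanine and showed the largest decrease of all members. AARS1 (ENSG00000090861.15, chromosome 16, 70251983 to 70289707) was at 335, 291 and 306 CPM in the control libraries, 162, 153 and 167 CPM in the NELFE knockdown and 155 and 152 CPM in the NELFB knockdown. The log2 fold change, with the standard error of the fit as SE, was -0.98 (SE 0.065, adjusted p = 1.45e-05, edgeR), and by its p-value it was the 5th of all genes tested. VARS1, the valyl-tRNA synthetase, followed. VARS1 (ENSG00000204394.12, chromosome 6, 31777518 to 31795752) was at 314, 297 and 306 CPM in the control libraries, 192, 199.8 and 198 CPM in the NELFE knockdown and 161 and 186 CPM in the NELFB knockdown, a log2 fold change of -0.71 (SE 0.075, adjusted p = 0.000169, edgeR). In both genes every knockdown library was below every control library, and the NELFB libraries of VARS1 were the lowest.

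GARS1, which supplies glycyl-tRNA synthetase to cytosol and mitochondria, was at 392, 405 and 445 CPM in the control libraries, 255, 255 and 311 CPM in the NELFE knockdown and 264 and 254 CPM in the NELFB knockdown. All knockdown values were below the control values, with a log2 fold change of -0.63 (SE 0.080, adjusted p = 0.000466, edgeR). YARS1, the tyrosyl-tRNA synthetase, was at 389, 385 and 413 CPM in the control libraries, 246, 249 and 303 CPM in the NELFE knockdown and 252 and 245 CPM in the NELFB knockdown, with a log2 fold change of -0.61 (SE 0.078, adjusted p = 0.000466, edgeR). In both genes NELFE replicate 3 lay between the other knockdown libraries and the control libraries, still below the latter. KARS1, the other gene that serves both compartments, was at 244, 275 and 297 CPM in the control libraries, 260.2, 257 and 320.4 CPM in the NELFE knockdown and 268 and 242 CPM in the NELFB knockdown. Here the groups overlapped, and the log2 fold change was -0.014 (SE 0.10, adjusted p = 0.933, edgeR).

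CARS1 (cysteine) was at 105, 95.7 and 106 CPM in the control libraries, 69.2, 69.4 and 78.3 CPM in the NELFE knockdown and 71.8 and 70.1 CPM in the NELFB knockdown, and SARS1 (serine, and also the first step towards selenocysteine) at 306, 265 and 273 CPM in the control libraries, 197, 196 and 211 CPM in the NELFE knockdown and 186 and 178 CPM in the NELFB knockdown. Their log2 fold changes were -0.51 (SE 0.068, adjusted p = 0.000563, edgeR) and -0.54 (SE 0.073, adjusted p = 0.000656, edgeR). MARS1 (methionine) was at 294, 315 and 337 CPM in the control libraries, 213, 220.2 and 260.1 CPM in the NELFE knockdown and 222 and 214 CPM in the NELFB knockdown, with a log2 fold change of -0.48 (SE 0.079, adjusted p = 0.0017, edgeR). The 3 genes did not overlap between knockdown and control libraries. 13.3% of the exon bases of MARS1 are shared with other genes, among them DDIT3 on the opposite strand, a stress response gene that was downregulated too (log2 fold change -0.80, adjusted p = 0.00161, edgeR). Reads from the shared bases were assigned to neither gene.

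Phenylalanyl-tRNA synthetase of the cytosol is built from an alpha subunit, FARSA, and a beta subunit, FARSB. FARSB was at 188, 208 and 219.6 CPM in the control libraries, 137, 131 and 165 CPM in the NELFE knockdown and 140.4 and 142 CPM in the NELFB knockdown, a log2 fold change of -0.52 (SE 0.082, adjusted p = 0.00139, edgeR). FARSA was at 109, 126 and 136 CPM in the control libraries, 105, 106 and 114 CPM in the NELFE knockdown and 94.3 and 107 CPM in the NELFB knockdown. Its groups overlapped and its log2 fold change was -0.23 (SE 0.084, adjusted p = 0.0631, edgeR). FARSA was called lower without control replicate 1 (adjusted p = 0.0142, edgeR), without NELFE replicate 3 (adjusted p = 0.0300, edgeR) and with no filter on low counts (adjusted p = 0.0413, edgeR). It was also called lower with the replicate number as a block (adjusted p = 0.0175, edgeR). The difference between both subunits was not tested. The mitochondrial enzyme is a single chain, FARS2. Its mean was 17.7 ± 1.23 CPM in the knockdowns (SD, n = 5) against 15.5 ± 1.08 CPM in the control (SD, n = 3) (log2 fold change 0.19, adjusted p = 0.153, edgeR).

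Glutamate and proline share 1 cytosolic enzyme, EPRS1, while the mitochondria use EARS2 and PARS2. EPRS1 was at 399, 403 and 401 CPM in the control libraries, 342, 321 and 344 CPM in the NELFE knockdown and 319.9 and 305 CPM in the NELFB knockdown. Its 3 control libraries were close together, and the log2 fold change was -0.30 (SE 0.061, adjusted p = 0.00522, edgeR). EARS2, which in mitochondria also charges the transfer RNA of glutamine with glutamate, had the largest decrease among mitochondrial members. EARS2 (ENSG00000103356.15, chromosome 16, 23520754 to 23557731) was at 121, 127 and 139 CPM in the control libraries, 95.6, 89.8 and 100.3 CPM in the NELFE knockdown and 89.2 and 87.1 CPM in the NELFB knockdown, a log2 fold change of -0.48 (SE 0.070, adjusted p = 0.000957, edgeR), with no overlap. PARS2 was at 13.4, 11.2 and 11.6 CPM in the control libraries, 12.6, 12.5 and 13.4 CPM in the NELFE knockdown and 12.2 and 11.1 CPM in the NELFB knockdown, with overlapping groups and a log2 fold change of 0.034 (SE 0.11, adjusted p = 0.842, edgeR). QARS1, the cytosolic glutaminyl-tRNA synthetase, was at 224, 231 and 221 CPM in the control libraries, 224, 224 and 217 CPM in the NELFE knockdown and 226 and 221 CPM in the NELFB knockdown. All 8 libraries lay within a narrow range, and its log2 fold change was -0.017 (SE 0.055, adjusted p = 0.846, edgeR).

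TARS1 (threonine) was at 348, 444 and 489 CPM in the control libraries, 332, 336 and 397 CPM in the NELFE knockdown and 319 and 314 CPM in the NELFB knockdown. Control replicate 1 lay among the knockdown libraries, and the log2 fold change was -0.33 (SE 0.11, adjusted p = 0.0432, edgeR). It was called in 2 of the 8 fits that left out 1 library, those without control replicate 1 or NELFE replicate 3. Its relative TARS3 was at 30.7, 30.2 and 28.9 CPM in the control libraries, 34.0, 36.2 and 30.3 CPM in the NELFE knockdown and 35.6 and 29.9 CPM in the NELFB knockdown, with overlapping groups and a log2 fold change of 0.15 (SE 0.086, adjusted p = 0.222, edgeR). Of the cytosolic members not yet named, IARS1 (-0.45, adjusted p = 0.00202), WARS1 (-0.47, adjusted p = 0.00227) and LARS1 (-0.19, adjusted p = 0.0279) were downregulated as well by the same edgeR test. NARS1 had -0.25 (adjusted p = 0.0682, edgeR) and RARS1 0.011 (adjusted p = 0.949, edgeR). NARS1 was called lower in the same fits as FARSA, the one with the block included, with an adjusted p (edgeR) of 0.0126 to 0.0218. LARS1 lost its call without any one of 5 libraries: control replicate 2 or 3, NELFE replicate 1 or NELFB replicate 1 or 2. Its adjusted p (edgeR) was then between 0.0512 and 0.0797.

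HARS1 and HARS2, for histidine in cytosol and mitochondria, lie head to head on chromosome 5, and the start sites of their canonical transcripts are 85 bases apart (140691370 and 140691455, GRCh38). HARS1 was at 88.6, 98.8 and 112 CPM in the control libraries, 101, 107 and 124 CPM in the NELFE knockdown and 102 and 102 CPM in the NELFB knockdown, and HARS2 at 43.9, 48.4 and 47.6 CPM in the control libraries, 38.1, 38.4 and 45.8 CPM in the NELFE knockdown and 39.6 and 36.9 CPM in the NELFB knockdown. HARS1 had a log2 fold change of 0.10 (SE 0.092, adjusted p = 0.451, edgeR) and HARS2 of -0.23 (SE 0.082, adjusted p = 0.0597, edgeR). The groups overlapped in both genes. HARS2 was called lower without control replicate 1 or NELFE replicate 3 (adjusted p = 0.0415 and 0.00778, edgeR). It was also called lower with the replicate number as a block (adjusted p = 0.0307, edgeR). Since 8.46% of the exon bases of HARS1 and 6.99% of those of HARS2 overlap other genes, each other among them, part of their reads may not have been counted.

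Among the mitochondrial members, CARS2 was at 71.8, 75.8 and 76.7 CPM in the control libraries, 57.1, 62.9 and 64.5 CPM in the NELFE knockdown and 54.0 and 57.4 CPM in the NELFB knockdown, and WARS2 (tryptophan) at 21.5, 23.4 and 22.8 CPM in the control libraries, 19.2, 17.0 and 18.8 CPM in the NELFE knockdown and 16.9 and 16.5 CPM in the NELFB knockdown. Both were lower in every knockdown library, with log2 fold changes of -0.34 (SE 0.073, adjusted p = 0.00697, edgeR) and -0.35 (SE 0.086, adjusted p = 0.0117, edgeR). YARS2 was at 31.7, 36.8 and 41.7 CPM in the control libraries, 29.8, 28.0 and 33.5 CPM in the NELFE knockdown and 24.9 and 26.0 CPM in the NELFB knockdown, with NELFE replicate 3 above control replicate 1 and a log2 fold change of -0.37 (SE 0.11, adjusted p = 0.0315, edgeR). AARS2 was at 38.9, 41.9 and 45.2 CPM in the control libraries, 35.2, 34.9 and 34.9 CPM in the NELFE knockdown and 35.3 and 38.0 CPM in the NELFB knockdown, and LARS2 at 98.1, 105 and 112 CPM in the control libraries, 91.0, 88.9 and 97.9 CPM in the NELFE knockdown and 88.5 and 83.5 CPM in the NELFB knockdown. These did not overlap, and their log2 fold changes were -0.24 (SE 0.073, adjusted p = 0.0329, edgeR) and -0.23 (SE 0.071, adjusted p = 0.0356, edgeR). EARS2 and CARS2 were called in all 8 fits that left out 1 library. WARS2 lost its call without control replicate 2 (adjusted p = 0.0562, edgeR). YARS2 and LARS2 were called only without control replicate 1 or NELFE replicate 3, and AARS2 only without one of these or NELFB replicate 2. Without control replicate 2 2 mitochondrial members were called, and without control replicate 3, NELFE replicate 1 or 2 or NELFB replicate 1 the number was 3.

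The other 10 mitochondrial members, HARS2, PARS2 and FARS2 included, were not called, with log2 fold changes from -0.36 (SARS2) to 0.19 (FARS2). In IARS2, the most abundant of them, the control libraries had 257, 259.6 and 234 CPM and the knockdown libraries between 222 and 236 CPM, so that control replicate 3 lay among them. The log2 fold change was -0.12 (SE 0.060, adjusted p = 0.153, edgeR). RARS2 had 0.11 (adjusted p = 0.198, edgeR), NARS2 -0.036 (adjusted p = 0.807, edgeR) and MARS2 -0.070 (adjusted p = 0.623, edgeR). TARS2, for threonine, and VARS2, for valine, had -0.18 and -0.17 (adjusted p = 0.102 and 0.178, edgeR). TARS2 was called lower with the replicate number as a block (adjusted p = 0.0461, edgeR).

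**Figure D2:**
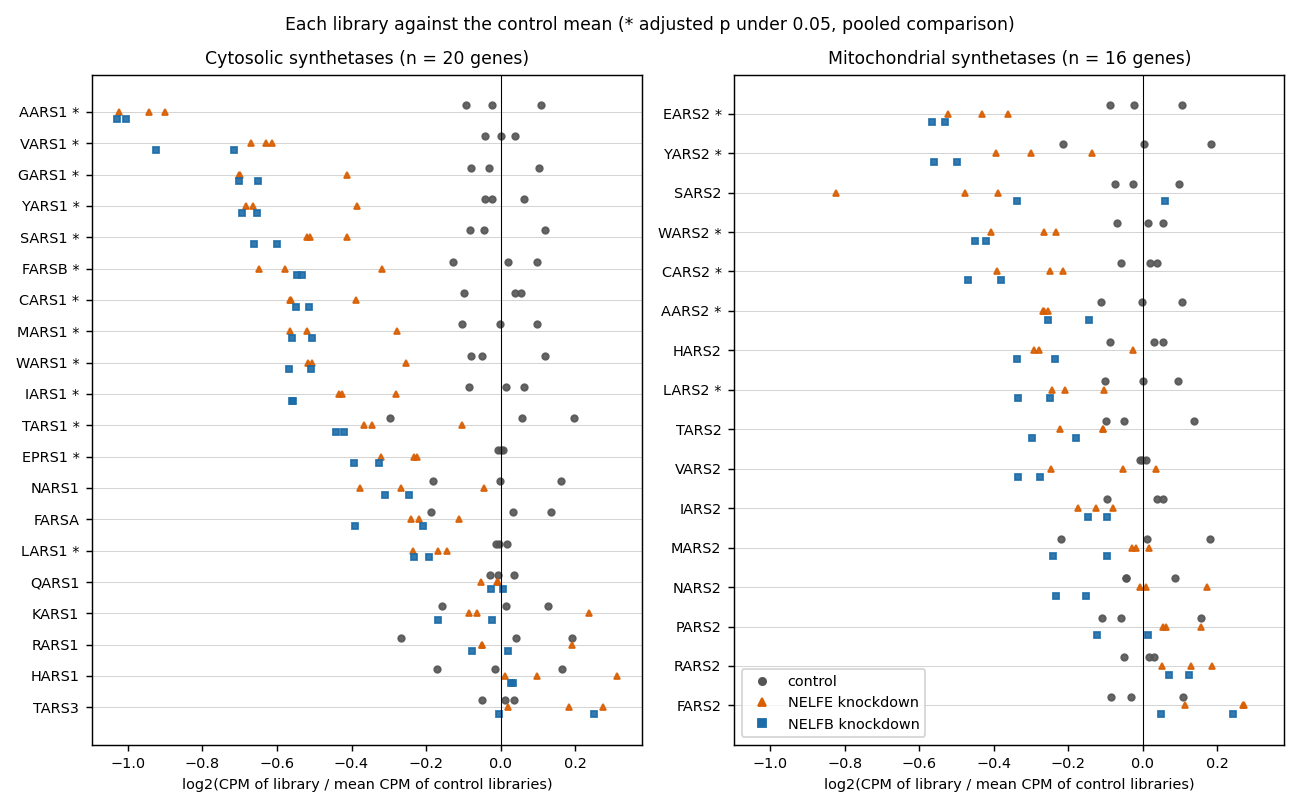
Level of each synthetase in each of the 8 libraries as log2 of its CPM over the mean CPM of the 3 control libraries, for cytosolic (left) and mitochondrial genes (right), ordered by log2 fold change. Circles are control, triangles NELFE and squares NELFB libraries, asterisks mark an adjusted p under 0.05 in the pooled comparison, and AARS1 lies farthest to the left.

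The libraries of a group differed in a shared way. Control replicate 3 had the highest value of the 3 control libraries in 13 cytosolic and 11 mitochondrial members, and NELFE replicate 3 had the highest of the 5 knockdown libraries in 16 of 20 and 8 of 16. NELFB replicate 2 had the lowest of them in 10 and 9. The labels name no batch.

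For 13 amino acids a cytosolic gene was set beside the mitochondrial gene for the same amino acid. Threonine has a further cytosolic gene, TARS3, with a log2 fold change of 0.15, and TARS1 was the gene used. The cytosolic gene had the lower log2 fold change in 11 of these pairs and the mitochondrial gene in 2 (leucine and histidine). For arginine, 1 of the 11, both values were positive (0.011 for RARS1 and 0.11 for RARS2). Without threonine the cytosolic gene had the lower value in 10 of 12 pairs. In 5 pairs both genes were called, in 5 the cytosolic gene alone and in 3 neither. The ratio of AARS1 to AARS2 in CPM was 8.62, 6.95 and 6.77 in the control libraries, 4.59, 4.38 and 4.77 in the NELFE knockdown and 4.39 and 4.01 in the NELFB knockdown, and that of VARS1 to VARS2 was 3.52, 3.34 and 3.41 in the control libraries, 2.23, 2.18 and 2.63 in the NELFE knockdown and 2.27 and 2.53 in the NELFB knockdown. For MARS1 to MARS2 it was 7.44, 6.81 and 6.48 in the control libraries, 4.59, 4.86 and 5.78 in the NELFE knockdown and 5.16 and 5.51 in the NELFB knockdown. In these 3 pairs every knockdown library was below every control library, and for HARS1 to HARS2 every one was above. In the other 9 pairs the ratios overlapped. The pairs were described without a test, since genes are not replicates.

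**Figure D3:**
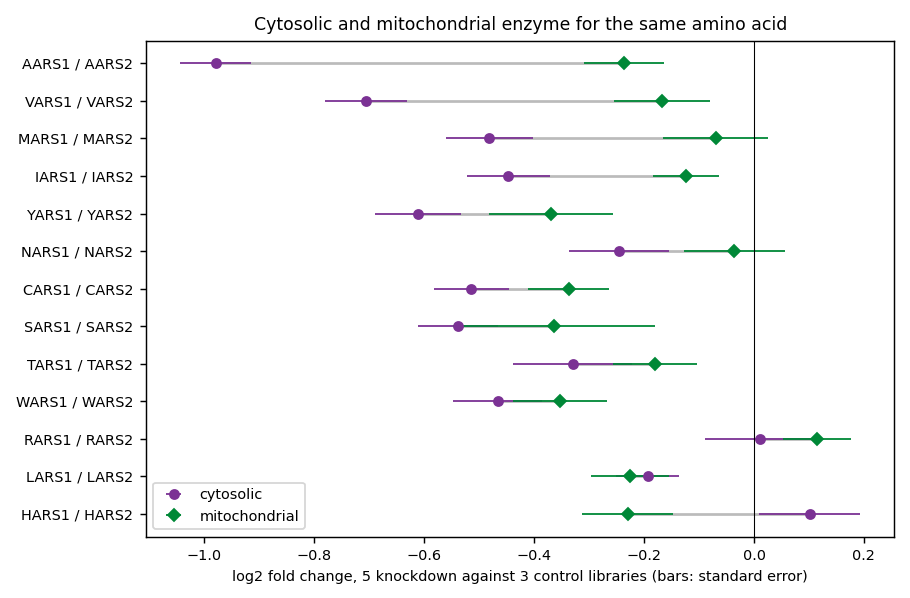
Log2 fold change (5 knockdown against 3 control libraries) of the cytosolic (circles) and the mitochondrial gene (diamonds) for the same amino acid in 13 pairs, with bars of 1 standard error. The gap is widest for AARS1 and AARS2, and the order is turned for LARS1 and LARS2 and for HARS1 and HARS2.

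Each knockdown was also compared with the control libraries on its own, in a model of 3 groups over 16852 genes. In the NELFE knockdown 11 cytosolic and 2 mitochondrial members (EARS2 and CARS2) were downregulated, compared with 7.04% of all genes. In the NELFB knockdown these were 11 and 6 (EARS2, CARS2, WARS2, YARS2, VARS2 and LARS2), compared with 8.88% of all genes. 0 members were upregulated in either, compared with 7.92% and 10.6% of all genes (edgeR), and 0 members had a higher level at an unadjusted p under 0.05, compared with 15.8% and 18.1%. DESeq2 gave 0 in this direction as well. The 11 cytosolic members were AARS1, VARS1, YARS1, GARS1, CARS1, SARS1, FARSB, IARS1, MARS1, WARS1 and EPRS1 in both knockdowns, which share their control libraries. The decrease exceeded 1.5-fold for 3 cytosolic members in the NELFE and 5 in the NELFB knockdown, compared with 2.25% and 3.31% of all genes, and for 0 mitochondrial ones. The median log2 fold change was -0.33 and -0.17 for the cytosolic and mitochondrial members in the NELFE knockdown, and -0.48 and -0.22 in the NELFB knockdown.

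AARS1 had a log2 fold change of -0.96 (SE 0.076, adjusted p = 0.000172, edgeR) in the NELFE and -1.02 (SE 0.087, adjusted p = 9.55e-05, edgeR) in the NELFB knockdown. VARS1 had -0.64 (SE 0.075, adjusted p = 0.000983, edgeR) and -0.81 (SE 0.086, adjusted p = 0.000346, edgeR). EARS2, the mitochondrial member of smallest p in both, had -0.44 (SE 0.078, adjusted p = 0.00637, edgeR) and -0.55 (SE 0.089, adjusted p = 0.00296, edgeR). SARS2 had a more negative value in the NELFE knockdown, -0.56 (SE 0.18, adjusted p = 0.0663, edgeR), and was not called. The fitted value was lower in the NELFB knockdown for 19 of 20 cytosolic and 13 of 16 mitochondrial members, compared with 48.7% of all genes. It was also lower there for 74 of the 78 mitochondrial ribosomal protein genes, so this direction was not particular to the synthetases. The direct comparison of the knockdowns called 0 of the 36 members (edgeR, smallest adjusted p = 0.855), and 2 had an unadjusted p under 0.05, NARS2 and VARS2. These are 5.56% of the members, near the 5.12% of all genes at this threshold. DESeq2 also called 0 of the 36 members. Over all genes, 0.315% were called, 0.237% with more and 0.0771% with less RNA after NELFE knockdown. The decrease exceeded 1.5-fold for 0.0712%. The number with less RNA, 13 in this fit, was 2 to 34 when 1 library was left out and 126 with the replicate number as a block. Several calls against the control depended on single libraries. Without NELFE replicate 1 or 2, 7 cytosolic members were called in the NELFE knockdown. The calls over all genes fell as well, from 1186 to 429 lower without NELFE replicate 1. Without NELFB replicate 1 or 2, 1 NELFB library was left, so a count of calls in that knockdown cannot show how stable its members are. Without control replicate 2 1 and 2 mitochondrial members were called in the NELFE and NELFB knockdowns, and without control replicate 1 5 in the NELFE knockdown. With the replicate number as a block, 7 mitochondrial members and 2355 of all genes were lower in the NELFE knockdown, against 2 and 1186 without it. Leaving out control replicate 3, NELFE replicate 1 or 2 or either NELFB library left 1 mitochondrial member in the NELFE knockdown.

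**Figure D4:**
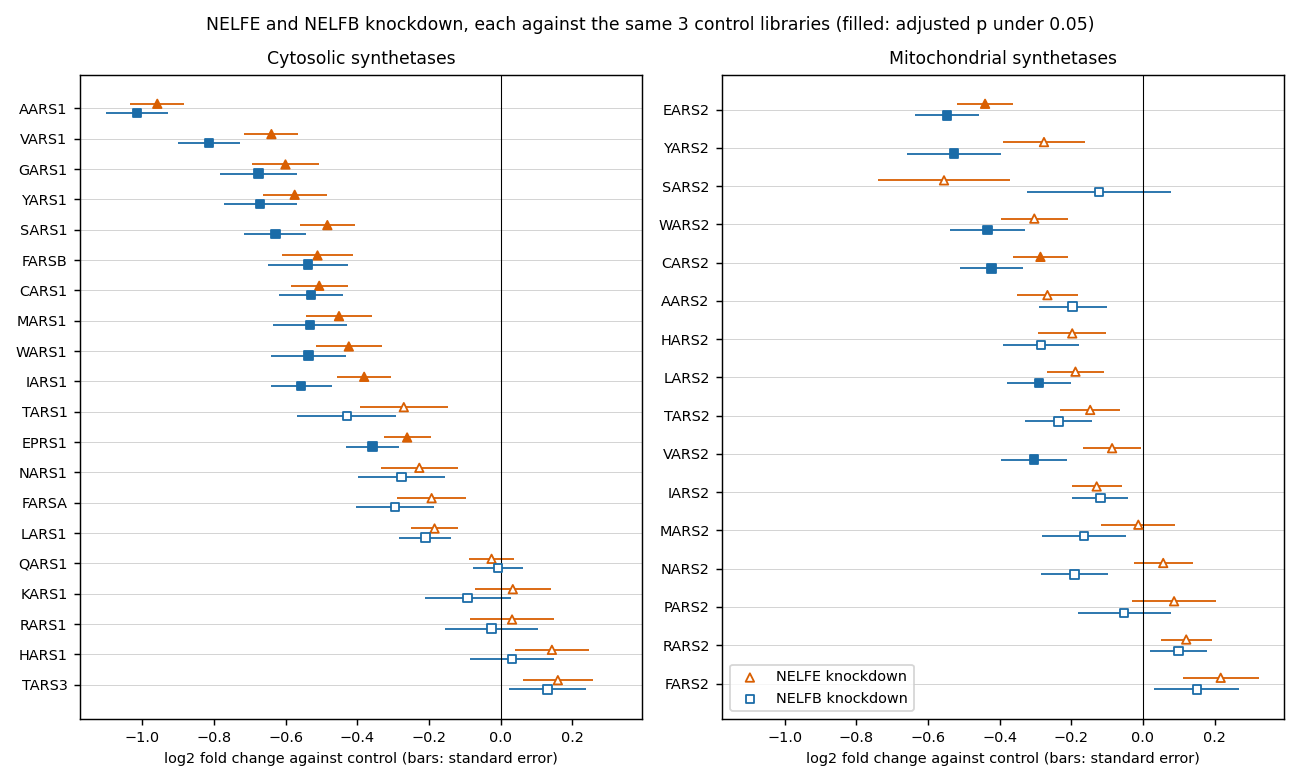
Log2 fold change of each synthetase in the NELFE (triangles) and the NELFB knockdown (squares), each against the same 3 control libraries, with bars of 1 standard error. Filled symbols have an adjusted p under 0.05, and 11 cytosolic genes are filled in both knockdowns.

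Some groupings of the cytosolic members were described in the pooled comparison, beside the 12.7% of all tested genes, and the 17.7% of those in the highest of the 5 groups by level, that were downregulated. Of the 12 synthetases that are widely described as ATF4 targets, 11 were downregulated, all but NARS1, with a median log2 fold change of -0.47. Of the other 8 cytosolic members, VARS1 and FARSB were. In the NELFE and in the NELFB knockdown alone, 9 of the 12 were downregulated, without LARS1, TARS1 and NARS1. Over all genes 7.04% and 8.88% were. The 6 genes whose promoter holds TGATGCAA (AARS1, CARS1, IARS1, MARS1, NARS1 and TARS1) had a median of -0.46, and 5 were called. The 10 genes with a promoter sequence but without these letters had a median of -0.26, and 5 were called. Of the 7 members that belong to the multisynthetase complex, EPRS1, IARS1, LARS1 and MARS1 were downregulated, while KARS1, QARS1 and RARS1 were not called. By enzyme class, 8 of 10 class I and 5 of 10 class II cytosolic members were called. EPRS1, which serves both glutamate and proline, was counted in class I only. The complex and class groupings were made after the values were seen, and the other lists were chosen with earlier results of these data known. None of these groupings was tested.

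Other genes of transfer RNA charging were taken as lists by their role, beside the 12.7% of all tested genes that were downregulated and the 13.3% that were upregulated. Of the 3 scaffold proteins of the multisynthetase complex, AIMP2 was downregulated (log2 fold change -0.36, adjusted p = 0.0242, edgeR), while EEF1E1 had -0.35 (adjusted p = 0.0588, edgeR) and AIMP1 -0.076 (adjusted p = 0.526, edgeR). Of the 7 tested of 8 genes of transfer RNA supply and delivery, 1 was downregulated. XPOT (the export receptor that carries transfer RNA out of the nucleus) had a mean of 293 ± 11.2 CPM in the knockdowns (SD, n = 5) against 388 ± 27.2 CPM in the control (SD, n = 3), a log2 fold change of -0.40 (SE 0.065, adjusted p = 0.00156, edgeR). The elongation factors EEF1A1 of the cytosol and TUFM of the mitochondria had -0.051 (adjusted p = 0.637, edgeR) and -0.14 (adjusted p = 0.106, edgeR). The 3 genes of editing (AARSD1, DTD1 and DTD2), which remove wrongly loaded amino acids, were not called. Of the 3 genes of selenocysteine synthesis, PSTK was upregulated (log2 fold change 0.58, adjusted p = 0.0201, edgeR). It was not called in the NELFE or NELFB knockdown alone (adjusted p = 0.0599 and 0.0635, edgeR). SEPHS2 was downregulated in the NELFB knockdown (log2 fold change -0.35, adjusted p = 0.0377, edgeR).

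On the mitochondrial side, 2 of 4 genes that modify charged mitochondrial transfer RNA were downregulated, QRSL1 (log2 fold change -0.32, adjusted p = 0.0289, edgeR), a subunit of the amidotransferase that turns glutamate into glutamine on its transfer RNA, and MTFMT (log2 fold change -0.24, adjusted p = 0.0382, edgeR), which formylates the initiator methionine. The other amidotransferase subunits GATB and GATC had 0.10 and 0.20 and were not called. Of the 78 mitochondrial ribosomal protein genes, 18 were downregulated (23.1%, compared with 12.7% of all genes) and 2 upregulated (2.56%, compared with 13.3%), with a median log2 fold change of -0.16. In the 2 highest of the 5 groups by level, 17.7% and 17.1% of genes were downregulated. In the NELFE knockdown 6 of the 78 were downregulated (7.69%, near the 7.04% of all genes), and in the NELFB knockdown 17 were (21.8%, compared with 8.88%). The direct comparison of the knockdowns called 0 of them (edgeR), and 14.1% had an unadjusted p under 0.05, compared with 5.12% of all genes. POLRMT, the mitochondrial RNA polymerase, was downregulated (log2 fold change -0.49, adjusted p = 0.00581, edgeR), and TFAM, POLG, NRF1 and GABPA were not called. Of the 13 proteins encoded by mitochondrial DNA, MT-CO2 (log2 fold change 0.46, adjusted p = 0.00783, edgeR) and MT-CYB (log2 fold change 0.30, adjusted p = 0.0408, edgeR) were upregulated and 0 downregulated. These 2 are 15.4% of the genes, near the 13.3% of all genes that were upregulated. All 13 had a positive log2 fold change, with a median of 0.13, compared with 49.7% of all genes that were positive. The summed level of all 13 was 41403, 34064 and 32065 CPM in the control libraries, 37606, 39664 and 40104 in the NELFE knockdown and 43423 and 44816 in the NELFB knockdown, with an overlap between control replicate 1 and the knockdowns. The mean of the knockdowns was 1.15 times that of the control.

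Of the 16 tested genes of the amino acid response list, 10 were downregulated (62.5%, compared with 12.7% of all genes) and 1 upregulated (6.25%, compared with 13.3%). The latter was PPP1R15A, a phosphatase subunit that acts on eIF2 alpha, with a log2 fold change of 0.77 (SE 0.13, adjusted p = 0.00184, edgeR). ATF3, a stress-induced transcription factor, had 0.49 (SE 0.28, adjusted p = 0.235, edgeR) in the pooled comparison. It was upregulated in the NELFB knockdown, with 0.92 (SE 0.21, adjusted p = 0.0133, edgeR), and had 0.10 (SE 0.19, adjusted p = 0.782, edgeR) in the NELFE knockdown. The difference between the knockdowns did not pass the test (adjusted p = 0.324, edgeR). ATF4 itself was at 359, 392 and 392 CPM in the control libraries, 249.5, 252 and 283 CPM in the NELFE knockdown and 254 and 232 CPM in the NELFB knockdown. All knockdown libraries were below the control libraries, with a log2 fold change of -0.58 (SE 0.071, adjusted p = 0.00035, edgeR). ASNS, the asparagine synthetase and a classical ATF4 target, had -1.60 (SE 0.11, adjusted p = 1.45e-05, edgeR), and PHGDH, the first enzyme of serine synthesis, -0.82 (SE 0.070, adjusted p = 7.34e-05, edgeR). The kinase EIF2AK4 (GCN2), which senses uncharged transfer RNA, had -0.29 (SE 0.059, adjusted p = 0.00505, edgeR). The part of the lower ATF4 level in the synthetase values was not tested.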

How the data were processed

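Per the study's methods and the submitters' processing notes, the authors checked single-end reads of 65 bases with FastQC 0.11.6, aligned them with STAR 2.5.4a to GRCh38 with the Gencode v24 annotation and deposited its raw counts per gene, without regard to strand. Reads that overlap 2 genes are not counted, which can lower overlapping genes such as SARS2 and MARS1.

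Here, gene symbols, coordinates, shares of exon bases and canonical transcript lengths came from GENCODE v44. It matched 97.4% of genes with reads and 99.9% of counts. Genes passing filterByExpr were fitted with edgeR 4.0.16 (TMM, robust quasi-likelihood test, R 4.3.3), in a pooled model of 5 knockdown and 3 control libraries and in a model of 3 groups, with p-values adjusted over all genes tested. DESeq2 1.42.0, other scaling and filters, the replicate number as a block and leaving out each library were the alternatives. Scripts were tested on simulated data.

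Library totals differed little (22037423 to 24444185). The study describes the replicates of both knockdowns as independent and biological, and the column headers number those of all groups, the control included, in the same way. Members with full values were the 8 cytosolic and 6 mitochondrial genes of smallest p, plus genes chosen for their biology. The members and lists were chosen with earlier results of these data known.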

Additional observations from a re-analysis of the deposited data

How the results depend on the processing

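Fits with DESeq2, with DESeq2 size factors in edgeR and with at least 10 counts in every library each called 13 cytosolic and 6 mitochondrial synthetases lower in the pooled comparison, as in the report, and so did the model of 3 groups. With no filter on low counts the numbers were 14 and 4: LARS1, AARS2 and LARS2 lost their calls (adjusted p = 0.0796, 0.0781 and 0.0507, edgeR), while FARSA and NARS1 gained one. With the replicate block they were 15 and 8, with FARSA, NARS1, HARS2 and TARS2 added. Counts of calls also depended on which library was left out. In the pooled comparison the cytosolic count lay between 11 and 15 and the mitochondrial count between 2 and 7, with 1360 to 2526 genes called higher and 1328 to 2599 lower. In the NELFE knockdown these ranges were 7 to 13, 1 to 5, 561 to 1620 and 429 to 1503, and in the NELFB knockdown 6 to 14, 1 to 7, 380 to 2218 and 223 to 2098. The lowest NELFB counts came without its first library, which leaves 1 library assumed to vary like the other groups. In the direct comparison of the knockdowns, 24 to 47 genes were called higher and 2 to 34 lower in the NELFE knockdown.

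The labels give only replicate numbers, and the libraries were treated as unpaired because not every same-numbered pair correlated above 0.1 in its deviations from the group means. Same-numbered control and NELFE libraries correlated at 0.36, 0.064 and 0.56, for each control library the highest of its 3 values, while NELFE replicate 2 correlated more with control replicate 1 (0.30). Same-numbered NELFE and NELFB libraries correlated at 0.12 and 0.26, and control and NELFB libraries at -0.035 and -0.022. The swapped NELFE and NELFB values, -0.12 and -0.26, add nothing, since the deviations of 2 libraries from their mean are exact opposites. The same-numbered values are at most a hint of shared numbers from the data, not from the design. With the number as a block, 2408 genes were called higher and 2355 lower in the NELFE knockdown, with 7 mitochondrial synthetases, 2312 lower in the NELFB knockdown, and 69 higher and 126 lower between the knockdowns. With only the libraries of the 2 groups, 1 mitochondrial synthetase was called in the NELFE knockdown and 8 genes were lower between the knockdowns. Between the knockdowns no filter gave 66 higher and 95 lower, DESeq2 36 lower, and at least 10 counts in every library 8 lower. The cause was not tested.

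The sign turned only for members that were not called. Their log2 fold changes over the fits without 1 library each were, in the pooled comparison, -0.0903 to 0.0556 for KARS1 (0.0187 with the replicate block), -0.1112 to 0.1177 for RARS1, -0.173 to 0.0304 for MARS2, -0.099 to 0.0103 for NARS2 and -0.0214 to 0.1147 for PARS2. In the NELFE knockdown they were -0.0795 to 0.1047 for KARS1, -0.0887 to 0.1404 for RARS1, -0.114 to 0.0896 for MARS2 and -0.0049 to 0.104 for NARS2. In the NELFB knockdown they were -0.0492 to 0.1254 for HARS1, -0.0322 to 0.0081 for QARS1 (0.0049 with at least 10 counts in every library), -0.1456 to 0.0832 for RARS1 (0.0775 with the block), -0.0098 to 0.2462 for TARS3, -0.1294 to 0.0301 for PARS2 and -0.3399 to 0.0533 for SARS2. No other member changed sign under any alternative run.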
